A study of Mus musculus with 9 samples.

Results

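The 10 genes described here encode the tissue inhibitors of metalloproteinases Timp1, Timp2, Timp3 and Timp4, the matrix metalloproteinases Mmp2, Mmp3, Mmp14 and Mmp15, and the secreted proteases Adamts1 and Adamts4. They were taken by symbol from the 13890 genes of the deposited count table, which lists all 10. Of these, 9 passed the filter on low counts and were tested among 13364 genes, and Mmp3 did not pass. The hearts came from 9 male NSG mice, an immunodeficient strain that accepts human cells, operated on at 8 weeks of age and killed about 3 weeks later. The 3 sham-operated mice (S, animals 2, 3 and 5) received saline into the spleen. The 3 mice labelled splenic HCT116 (T, animals 11, 12 and 15) received, by that label, HCT116 cells, a human colorectal cancer line, by the same route. The 3 mice labelled splenic HCT116+ACVR2B/Fc (A + T, animals 20, 21 and 22) were, by that label, hosts of these cells also given weekly ACVR2B/Fc. ACVR2B/Fc is a soluble activin receptor fused to an antibody Fc fragment. Mice given ACVR2B/Fc without tumour cells were not analysed here. Reads were aligned to the mouse genome, and the values were taken as those of the host. Whether any reads came from the human cells was not tested.

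The libraries held 12392222 to 19732471 counts on genes. Levels are given as CPM, counts scaled to a common library size, after TMM scaling, which corrects that size for composition, and on this scale 3 counts correspond to between 0.152 and 0.281 CPM. Genes of cardiomyocytes summed to between 45800 and 67800 CPM. The libraries of animal 12 of T and animal 22 of A + T stood apart in airway genes, with summed levels of 104 and 1280 CPM, against 0.498 to 2.39 CPM in the other libraries. The changes of the libraries labelled T relative to S did not follow those that the study's gene list gives for tumour hosts. They followed those it lists under ACVR2B and sham. T is therefore used here as a label, and a direction in T is that of these 3 libraries. The changes of A + T were not compared with the list, so A + T is also used as a label. The labels number the animals but do not describe them further, so P-values measure the spread between these libraries.

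Matrix metalloproteinases are zinc-dependent enzymes that cut collagens, laminins and other proteins of the extracellular matrix. The Timps bind their active site and block them. On the cell surface, Timp2 also serves as a bridge that holds the proform of Mmp2 near Mmp14, which then activates it. Adamts proteases cut proteoglycans such as versican and aggrecan, and Timp3 is the inhibitor that acts on them. In the heart, fibroblasts make much of the matrix and of Mmp2, and the balance between these enzymes and their inhibitors has long been studied in cardiac remodelling.

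Timp3 and Timp2 were the most abundant of the 10 genes in these hearts, and Mmp15 and Mmp2 were the most abundant of the enzymes. The deposited log2 values, which differ from log2 CPM by a constant for each gene as a scaling by length does, were used to rank the genes. On this length-scaled linear scale, Timp3 had the highest median over the 9 libraries (56.8, range 39.2 to 82.9), followed by Timp2 (44.5), Mmp15 (24.3), Mmp2 (17.4), Timp4 (13.7), Mmp14 (10.6), Adamts1 (7.48), Timp1 (2.80), Adamts4 (0.406) and Mmp3 (0.310). Timp2 exceeded Mmp15, Adamts1 exceeded Timp1 and Timp1 exceeded Adamts4 in each of the 9 libraries. Mmp2 exceeded Timp4, Timp4 exceeded Mmp14 and Mmp14 exceeded Adamts1 in 6 libraries each, so the order of these neighbours was not the same in every heart. Timp3 was above Timp2, and Mmp15 above Mmp2, in 8 of 9.

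**Figure D1:**
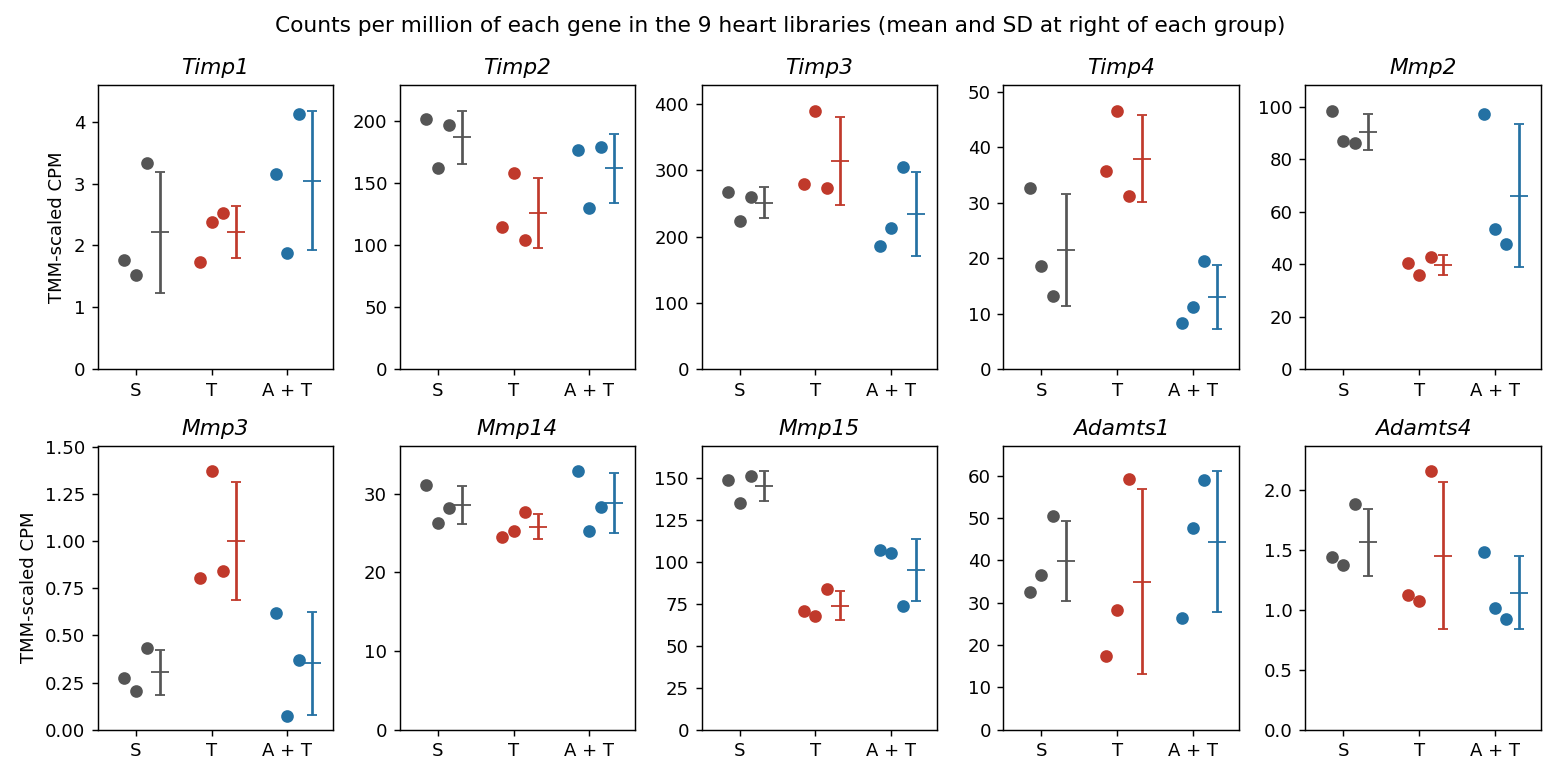
TMM-scaled CPM of each gene (vertical axis, from 0) in the 9 heart libraries, with 1 point per animal and the mean and SD of each group (n = 3) at its right. Mmp2 and Mmp15 lie between 35.7 and 42.9 CPM and between 67.5 and 83.6 CPM in the libraries labelled T, below every S library, and Timp4 lies lowest in A + T, between 8.29 and 19.4 CPM.

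In the libraries labelled T, Mmp2, Mmp15 and Timp2 were lower than in S, while the Mmp14 levels of the groups overlapped. Mmp2 fell 2.29-fold and Mmp15 1.96-fold. Of the 9 genes tested, 3 had an adjusted P-value under 0.05 in T vs. S and these 3 were lower, against 21.2% of all genes tested (10.3% higher and 11% lower). By the thresholds of the study, an unadjusted P-value under 0.05 and at least 1.5-fold, 3 genes passed, with Timp4 higher and Mmp2 and Mmp15 lower, against 14.2% of all genes. For 4 genes (Mmp2, Mmp15, Timp2 and Timp3), the T and S libraries did not overlap, against 42.6% of all genes. The median log2 fold change of the 9 genes was −0.15 and that of all genes was −0.004.

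Mmp2, which encodes gelatinase A, is a plus-strand gene at chromosome 8, 92827291 to 92853420 (positions are of GRCm38, or mm10), and measured 98.6, 86.9 and 86.4 CPM in S, 40.6, 35.7 and 42.9 CPM in T, and 97.5, 53.3 and 47.6 CPM in A + T. All T libraries were below all S libraries, and in A + T animal 20 was at the level of S whereas animals 21 and 22 were just above T. The mean was 90.6 ± 6.94 CPM for S, 39.7 ± 3.68 for T and 66.1 ± 27.3 for A + T (n = 3, mean ± SD). The log2 fold change in T vs. S was −1.19 (standard error (SE) 0.23, adjusted P = 0.00476 by the quasi-likelihood test of edgeR). With any 1 of the 9 animals left out, its adjusted P-value stayed under 0.05.

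Mmp15, a membrane-anchored metalloproteinase also called MT2-MMP, lies on the plus strand of the same chromosome, from 95352268 to 95375080. Its levels were 149, 135 and 151 CPM in S, 70.5, 67.5 and 83.6 CPM in T, and 107, 105 and 73.8 CPM in A + T. The S libraries stood at 145 ± 8.77 CPM (n = 3, mean ± SD), and both other groups lay wholly below them. Its log2 fold change in T vs. S was −0.97 (SE 0.14, edgeR adjusted P = 0.00124), and this call also held with any of the 9 animals left out.

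Mmp14, or MT1-MMP, the activator of Mmp2, lies on the plus strand of chromosome 14 from 54431612 to 54445364. It measured 31.1, 26.3 and 28.1 CPM in S, 24.5, 25.3 and 27.6 CPM in T, and 32.8, 25.3 and 28.3 CPM in A + T, and all groups overlapped. Its log2 fold change in T vs. S was −0.15 with a standard error of 0.11 (adjusted P = 0.368 from edgeR). The length-scaled level of Mmp2 was 2.62 to 2.81 times that of Mmp14 in S and 1.20 to 1.42 times in T, without overlap, and 2.53, 1.80 and 1.43 times in animals 20, 21 and 22 of A + T.

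Timp2 lies on the minus strand of chromosome 11 from 118301069 to 118355740. It measured 202, 162 and 197 CPM in S, 115, 158 and 104 CPM in T, and 177, 130 and 179 CPM in A + T. The T libraries lay below S, but animal 12 of T, at 158 CPM, came close to animal 3 of S, at 162 CPM. The log2 fold change in T vs. S was −0.57 (SE 0.17, edgeR adjusted P = 0.0371). This call was kept in 5 of the 9 fits with 1 animal left out. Over all genes, the number called also fell in the leave-out fits that lost it, from 2838 to between 1765 and 2337. Without animal 2 or 5 of S or animal 11 or 15 of T, the adjusted P-value from edgeR was 0.121, 0.105, 0.126 and 0.117, respectively, with log2 fold changes of −0.50, −0.53, −0.51 and −0.44, and it was 0.0772 when libraries were scaled by their totals alone.

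Promoter sequence could be read for 8 of the 10 genes from RefSeq, build GRCm38.p6, and the 250 bases upstream of the RefSeq start are shown for the genes that passed the adjustment and have an entry. They are printed 5′ to 3′ on the strand of the gene, and capitals mark the GC box GGGCGG on either strand. The Mmp15 stretch is chr8:95352046-95352295, the Timp2 stretch chr11:118355412-118355661 and the Timp4 stretch chr6:115252206-115252455.
Mmp15: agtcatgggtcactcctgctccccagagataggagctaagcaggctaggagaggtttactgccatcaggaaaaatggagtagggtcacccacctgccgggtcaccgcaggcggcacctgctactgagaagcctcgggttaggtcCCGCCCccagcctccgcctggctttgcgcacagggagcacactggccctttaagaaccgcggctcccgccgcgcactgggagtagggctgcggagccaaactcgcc
Timp2: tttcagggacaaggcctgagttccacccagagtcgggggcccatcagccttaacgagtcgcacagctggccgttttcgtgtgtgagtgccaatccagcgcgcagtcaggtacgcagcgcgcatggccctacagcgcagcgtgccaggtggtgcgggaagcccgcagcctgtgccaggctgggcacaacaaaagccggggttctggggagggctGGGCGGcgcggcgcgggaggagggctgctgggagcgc
Timp4: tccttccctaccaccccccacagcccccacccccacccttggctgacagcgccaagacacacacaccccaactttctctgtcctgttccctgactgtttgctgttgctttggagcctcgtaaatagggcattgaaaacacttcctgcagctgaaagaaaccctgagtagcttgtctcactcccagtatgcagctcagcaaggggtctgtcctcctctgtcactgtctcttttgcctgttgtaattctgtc
The Mmp15 and Timp2 promoters, of the genes that fell in T, had 63.6% and 68.0% G or C and each held 1 GC box, 106 to 101 and 37 to 32 bases upstream of the start. The Timp4 promoter had 53.6% G or C and no GC box. A GC box was found in 6 of the 8 promoters and in 32.9% of all 27025 promoters of this length. The AP-1 letters TGANTCA, searched on both strands, occurred only in that of Mmp3 among the 8, 46 to 40 bases upstream of the start, and in 6.87% of all promoters. The STAT letters TTCNNNGAA were in none of the 8 and in 7.18% of all, and the TATA box TATAAA was in those of Mmp3 and Adamts1 and in 13% of all. The letters CAGAC of SMAD factors were in 1 of the 8, that of Timp4, and in 42.1% of all, and those of GATA factors (AGATAA), of ETS factors (CCGGAA) and of a MEF2-like AT-rich motif were in none of the 8, with 10.3%, 12.2% and 3.23% of all. These are matches of letters and not measured binding.

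Timp4, the Timp that is most characteristic of heart muscle, had the largest log2 fold change of the 9 genes tested between A + T and the libraries labelled T. It lies on the minus strand of chromosome 6 from 115241892 to 115252205, inside the Syn2 gene on the opposite strand. Its levels were 32.7, 18.5 and 13.1 CPM in S, 35.7, 46.6 and 31.3 CPM in T, and 8.29, 11.1 and 19.4 CPM in A + T. All A + T libraries were below all T libraries, whereas S overlapped with both. In A + T vs. T, Timp4 was 2.93-fold lower, a log2 fold change of −1.55 (SE 0.35, edgeR adjusted P = 0.0329). Without animals 12 and 22, the highest of T and of A + T, it was −1.80 (SE 0.35, edgeR adjusted P = 0.0152). In T vs. S the log2 fold change was 0.82 (SE 0.34, edgeR adjusted P = 0.114). This passed without animal 2 of S (1.26, edgeR adjusted P = 0.0334) and without animal 22 of A + T (0.82, edgeR adjusted P = 0.0454). The fall in A + T vs. T lost its call without animal 3 of S, 11 or 12 of T, or 20 or 21 of A + T. The adjusted P-values from edgeR were then 0.055, 0.101, 0.0898, 0.0863 and 0.0874. In these fits the number called over all genes also fell, from 786 to between 130 and 481. The log2 fold change of Timp4 stayed between −1.98 and −1.31 whichever of the 9 animals was left out.

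Timp3, the inhibitor that binds to the matrix, lies on the plus strand of chromosome 10 from 86300372 to 86349506, inside Syn3 on the opposite strand. It measured 268, 224 and 260 CPM in S, 279, 390 and 273 CPM in T, and 185, 213 and 305 CPM in A + T. The highest libraries of T and of A + T were those of animals 12 and 22, which also held the airway genes. The same 2 animals were the highest of their groups for Timp2 and Timp4. The log2 fold change was 0.33 in T vs. S (SE 0.19, edgeR adjusted P = 0.247) and −0.42 in A + T vs. T (SE 0.19, edgeR adjusted P = 0.221). Without animals 12 and 22, it was 0.15 in T vs. S (SE 0.09, edgeR adjusted P = 0.273) and −0.47 in A + T vs. T (SE 0.10, edgeR adjusted P = 0.0237).

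Timp1, a soluble inhibitor known to rise with inflammation and fibrosis, had few counts, between 26 and 67 in a library. It lies on the plus strand of chromosome X from 20870166 to 20874735, inside Syn1 on the opposite strand. Its levels were 1.77, 1.52 and 3.33 CPM in S, 1.73, 2.38 and 2.53 CPM in T, and 1.87, 3.15 and 4.13 CPM in A + T (animals 21, 20 and 22), and all groups overlapped. The log2 fold change in T vs. S was 0.02 with a standard error of 0.37 (adjusted P = 0.977 from edgeR), and it took the other sign with upper-quartile scaling or library totals alone. The genes whose log2(CPM + 0.5) was most like that of Timp1 over the 9 libraries were Fbxl2 (Pearson's r = 0.987), Snf8 (0.943), Map3k14 (0.912), Tnfrsf1b (0.911) and Acsl4 (0.903). These are a description only, because they are the highest values picked from all genes tested and the libraries fall into 3 groups. The antisense hosts of the Timps were low, with at most 16 counts for Syn1, 113 for Syn2 and 17 for Syn3 in a library, and the counting took strand into account.

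Adamts1 lies on the minus strand of chromosome 16 from 85793827 to 85803113. It measured 32.6, 36.6 and 50.5 CPM in S, 17.4, 28.2 and 59.3 CPM in T, and 26.4, 47.7 and 59.1 CPM in A + T. The T libraries, at 35 ± 21.8 CPM (n = 3, mean ± SD), spread more relative to their mean than those of any other group and gene of the 9 tested. The log2 fold change in T vs. S was −0.21 with a standard error of 0.40 (adjusted P = 0.752 from edgeR).

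Adamts4 lies on the plus strand of chromosome 1 from 171250421 to 171260637. It had 14 to 27 counts in a library. It measured 1.44, 1.37 and 1.88 CPM in S, 1.12, 1.07 and 2.15 CPM in T, and 1.48, 1.01 and 0.924 CPM in A + T, and all groups overlapped. The log2 fold change in T vs. S was −0.14 with a standard error of 0.34 (adjusted P = 0.795 from edgeR).

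Mmp3, stromelysin-1, lies on the plus strand of chromosome 9 from 7445822 to 7455975 and was below the filter. The S libraries held 5, 4 and 6 counts, the T libraries 13, 23 and 9, and the A + T libraries 10, 1 and 6. Every T library was above S, and the counts of A + T overlapped with both, although its CPM (0.618, 0.0718 and 0.37) lay below the 0.805 to 1.37 CPM of T. Fitted with all genes kept, its log2 fold change was 1.76 in T vs. S (SE 0.57, edgeR adjusted P = 0.0536 over 13890 genes) and −1.47 in A + T vs. T (SE 0.56, edgeR adjusted P = 0.159). With Rn45s left out of the table, Mmp3 passed the filter and the T vs. S call was gained, at 1.77 (SE 0.56, edgeR adjusted P = 0.0468), while A + T vs. T had −1.47 (edgeR adjusted P = 0.147). The T libraries, where Mmp3 was highest, counted towards passing that filter, so this T vs. S call is not independent of the filter.

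**Figure D2:**
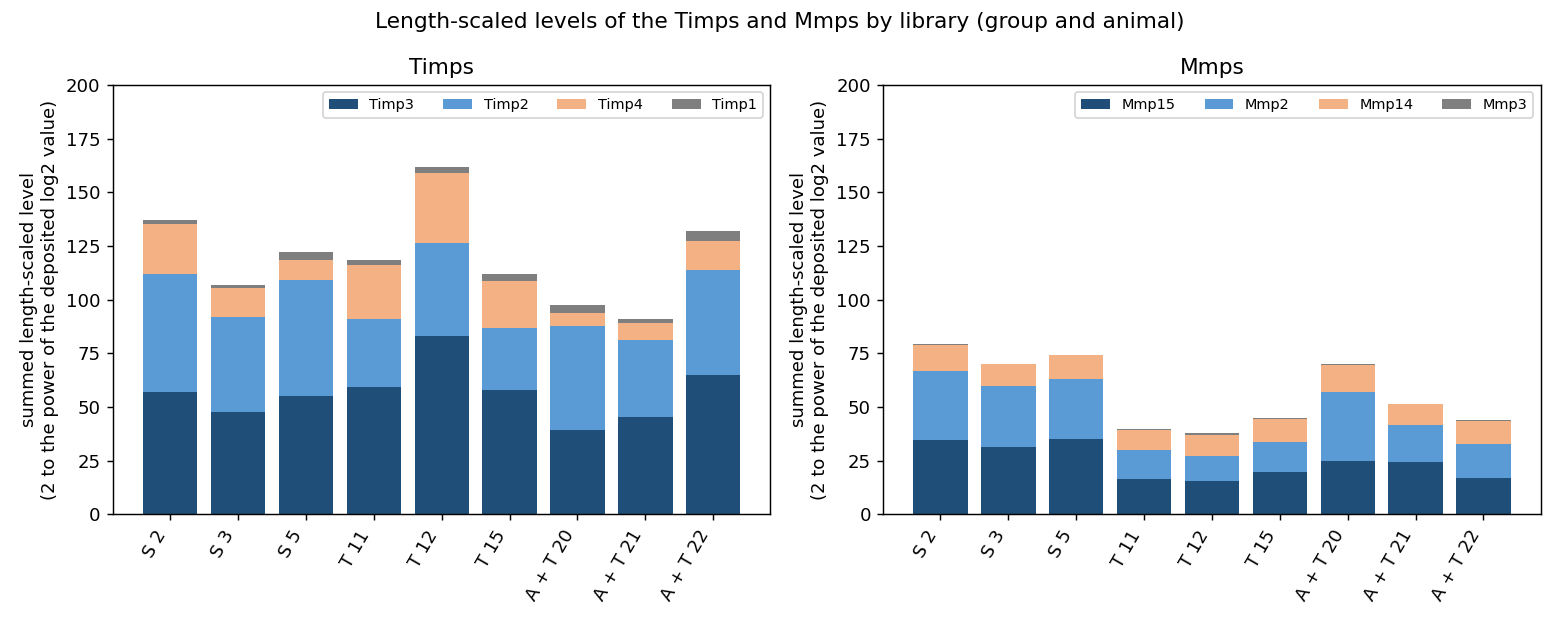
Stacked length-scaled levels (2 to the power of the deposited log2 value, vertical axis from 0) of the 4 Timps at left and the 4 Mmps at right, 1 bar per library with its group and animal. The Mmp bars lie between 37.9 and 44.7 in T, below the 70.1 to 79.0 of S, while the Timp bars of the groups overlap.

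Summed on the length-scaled scale, the 4 Timps reached 122 ± 15 for S, 131 ± 27.3 for T and 107 ± 22 for A + T, whereas the 4 Mmps reached 74.5 ± 4.45 for S, 40.8 ± 3.51 for T and 55.1 ± 13.3 for A + T (n = 3, mean ± SD). The ratio of Timps to Mmps was therefore 1.64 ± 0.105 for S, 3.25 ± 0.917 for T and 2.05 ± 0.849 for A + T (n = 3, mean ± SD). For T it was 2.97, 4.27 and 2.50, above the 1.53 to 1.74 of every S library. For A + T it was 1.39 for animal 20, 1.76 for animal 21 and 3.01 for animal 22, so the group reached from below S to within T. Timp4 made up 19.8% to 21.3% of the summed Timps in T, 6.07% to 10.4% in A + T and 7.58% to 16.8% in S. These sums describe RNA and not enzyme activity, and no test was run on them.

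By the labels, A + T and T differ in ACVR2B/Fc, but which treatment separates them rests on both labels. The study's gene list puts that of T in doubt, and that of A + T was not checked against it. Between these libraries, 1 of the 9 genes (Timp4, lower in A + T) had an adjusted P-value under 0.05, against 5.88% of all genes (3.09% higher and 2.79% lower). Mmp2, 1.67-fold higher, and Timp4 passed the study's thresholds, against 8.11% of all genes, and these 2 were also the genes without overlap between the groups, against 25.4%. Mmp2 had a log2 fold change of 0.74 (SE 0.23, edgeR adjusted P = 0.0837), and Mmp15 and Timp2 had 0.37 and 0.36 (standard errors 0.14 and 0.17, adjusted P = 0.154 and 0.24 from edgeR). Those of Mmp14, Timp1, Adamts1 and Adamts4 were 0.16, 0.48, 0.36 and −0.30, with standard errors of 0.11, 0.36, 0.40 and 0.35 and adjusted P-values from edgeR of at least 0.415. The number of the 9 genes called changed with the animal left out. It was 0 without animal 3, 11, 12, 20 or 21 and 4 without animal 22 (Timp3, Timp4, Mmp2 and Mmp15). Over all genes, the number called was 786 with every animal. It was between 130 and 481 without animal 3, 11, 12, 20 or 21, and 1006 without animal 22. Both comparisons with T share its libraries, so the opposite signs of Mmp2, Mmp15 and Timp2 in them are not independent.

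A + T vs. S uses the libraries labelled T only through the low-count filter, the TMM scaling and the shared estimate of the spread. It still rests on the unchecked label of A + T. Mmp15 was 1.52-fold lower in A + T, a log2 fold change of −0.61 (SE 0.14, edgeR adjusted P = 0.0268), and was the 1 gene of 9 called, against 8.31% of all genes (4.67% higher and 3.64% lower). It was also the only one of the 9 past the study's thresholds, against 8.91% of all genes, and without overlap, against 32.4%. Fitted with the S and A + T libraries alone, on the genes kept by the filter over all 9 libraries, Mmp15 had the same log2 fold change. Its adjusted P-value from edgeR was then 0.0431. The call was lost without any of the S animals 2, 3 and 5 (adjusted P = 0.0979, 0.065 and 0.0819 from edgeR), with log2 fold changes of −0.58, −0.66 and −0.58. Over all genes, 269, 300 and 533 were called in these fits, against 1110 with every animal. Timp4 had a log2 fold change of −0.73 (SE 0.35, edgeR adjusted P = 0.22) and Mmp2 one of −0.45 (SE 0.22, edgeR adjusted P = 0.221), which was −0.85 without animal 20 (adjusted P = 0.00528 from edgeR). The other 6 genes had log2 fold changes between −0.44 and 0.50.

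**Figure D3:**
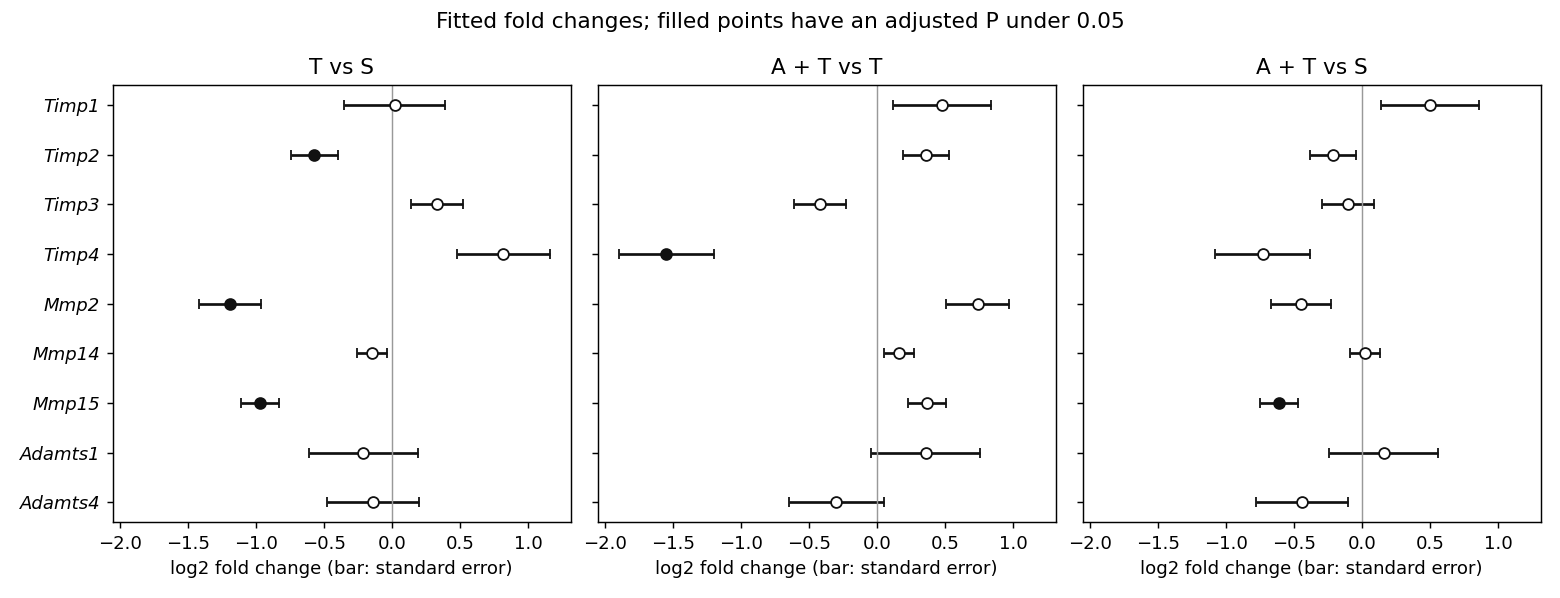
Log2 fold changes (horizontal axis) of the 9 genes tested in the 3 comparisons, with SE as bars and filled points for an adjusted P-value under 0.05. Filled are Timp2 (−0.57), Mmp2 (−1.19) and Mmp15 (−0.97) in T vs. S, Timp4 (−1.55) in A + T vs. T and Mmp15 (−0.61) in A + T vs. S.

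Genes that mark the cell types of the heart differed between the same groups. The 8 fibroblast genes of a fixed list were all lower in T vs. S at an adjusted P-value under 0.05 (edgeR), with a median log2 fold change of −0.98, and 5 of them were higher and none lower in A + T vs. T, with a median of 0.58. Their summed level was 3030 to 3540 CPM in S, 1750 to 1870 in T and 2340 to 2800 in A + T, where animal 20, the one with Mmp2 at the level of S, was the highest. Against S, the A + T median was −0.33 and 1 of 8 was lower. Lum and Dcn are in this list and in that of proteoglycan genes. Of 7 endothelial genes, 4 were lower in T vs. S (median −0.55), with sums of 806 to 943 CPM in S, 508 to 632 in T and 622 to 764 in A + T. Of 7 genes of pericytes and smooth muscle, 5 were lower (median −0.74). Of 8 macrophage genes, 5 were higher in A + T vs. T (median 0.89), with sums of 598 to 805 CPM in A + T against 287 to 403 in T. Against S, with sums of 299 to 345 CPM, 7 of the 8 were higher in A + T (median 0.93) and 2 in T (median 0.18). Of 7 cardiomyocyte genes, 2 (Tnnt2 and Pln) were higher and 1 (Actc1) was lower in T vs. S (median −0.05), all named after their values were seen. Actc1, the cardiac alpha-actin gene, had 11200 to 11500 CPM in S and 5880 to 6330 CPM in T. The 7 had a median of 0.02 relative to T in A + T. In tissue RNA, fewer cells of a type cannot be told apart from less RNA per cell, and the part of these shifts in the levels of Mmp2, Mmp15 and Timp2 was not tested.

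Genes of the matrix that these enzymes cut were also lower in T. Of 19 genes of collagens, laminins and elastic matrix, 16 were lower in T vs. S, with a median log2 fold change of −1.26, and 7 were higher in A + T vs. T (median 0.90). Col3a1, a fibrillar collagen, stood at 332, 337 and 365 CPM in S and at 80.9, 93.4 and 88.4 CPM in T, whereas A + T had 447 CPM in animal 20 and 205 and 195 CPM in animals 21 and 22. It changed by −1.98 on the log2 scale from S to T and by 1.69 from T to A + T (edgeR adjusted P = 0.000989 and 0.00855). Col6a3 (−2.11) and Col6a2 (−1.96), of type VI collagen, also fell in T vs. S, and the matricellular gene Postn (1.54) and Col1a2 (1.18) also rose in A + T vs. T. Against S, 4 of the 19 were lower in A + T (median −0.46), with Eln, the gene of elastin, at −1.05, Col6a2 at −0.87 and Col4a1 at −0.74. Of 8 proteoglycan and hyaluronan genes tested, 5 were lower in T vs. S (median −1.06), among them the hyaluronan synthase Has3 (−1.49), Lum (−1.44) and Vcan (−1.11), which encodes the Adamts substrate versican. Lum (1.09) and Bgn (0.63) were higher in A + T vs. T (median 0.28), and in A + T vs. S 1, Has3 (−1.26), was lower (median −0.54).

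**Figure D4:**
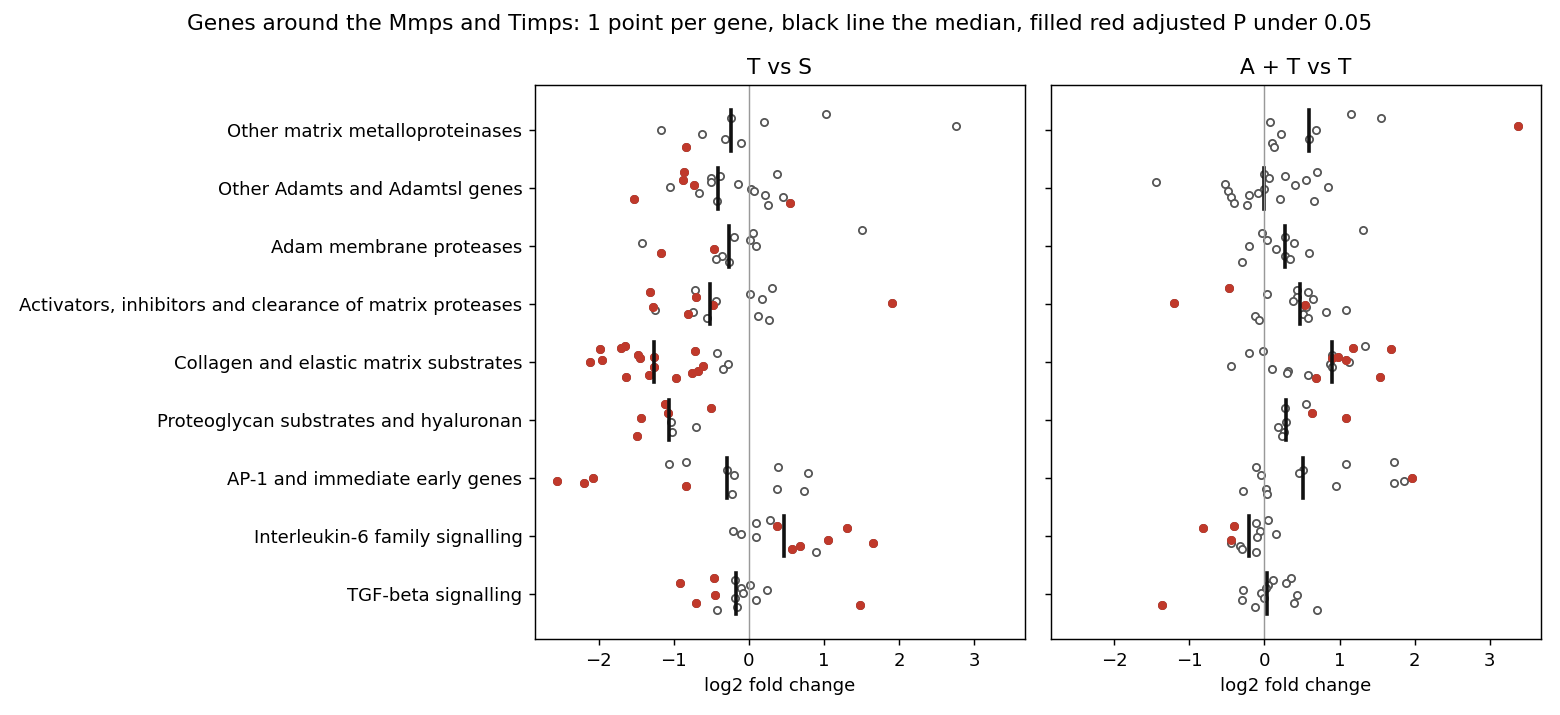
Log2 fold changes (horizontal axis) of the genes of 9 fixed lists for T against S (left) and A + T against T (right), 1 point per gene, red where the adjusted P-value is under 0.05, with a black line at the median of each list. The collagen and elastic matrix genes have medians of −1.26 and 0.90.

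Of 38 other genes tested of the Mmp, Adamts, Adamtsl and Adam families, 8 had an adjusted P-value under 0.05 in T vs. S, or 21.1%, close to the 21.2% of all genes. Not all of these genes encode active proteases. Of the 9 other Mmps tested, 1 passed in T vs. S, Mmp28 (log2 fold change −0.83, adjusted P = 0.0219 from edgeR), with a list median of −0.24, and 1 passed in A + T vs. T and in A + T vs. S, Mmp12 (list medians 0.60 and 0.27). Mmp12, the macrophage elastase, had 1, 3 and 0 counts in S, 9, 4 and 11 in T, and 206, 28 and 50 in A + T, where animal 20 held most of them. Of 18 other Adamts and Adamtsl genes, 4 were lower in T vs. S and 1 was higher, with a median of −0.40. Adamtsl2, whose product binds the fibrillin network, fell from 11.3 ± 2.65 to 3.93 ± 0.417 CPM (n = 3, mean ± SD; log2 fold change −1.53, edgeR adjusted P = 0.00253), as did Adamts7 (−0.88) and the procollagen peptidase Adamts2 (−0.86), while Adamtsl4 rose (0.55). None of the 18 passed by edgeR in A + T vs. T (median −0.01), where DESeq2 called 3 and limma-voom none, and 8 were under 0.05 by unadjusted edgeR P-values. Against S, 2 were lower in A + T (median −0.18), Adamts8 (−1.95) and Adamtsl2 (−1.32). Of 11 Adam genes, 2 were lower in T vs. S (median −0.27), Adam19 (−1.17) and Adam17 (−0.46), the sheddase of tumour necrosis factor that Timp3 inhibits, and Adam8, a gene of myeloid cells, was higher in A + T vs. S (2.83, median of the list −0.10). None of the 11 passed by edgeR, DESeq2 or limma-voom in A + T vs. T (median 0.28), where 4 had an unadjusted P-value under 0.05 by edgeR.

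Regulators of the proteases changed in both directions. Of 16 genes tested that activate, inhibit or clear matrix proteases, 5 were lower and 1 was higher in T vs. S (median −0.52). Pcsk6 (−1.31), a proprotein convertase, Reck (−1.28), a membrane-bound inhibitor of Mmp2 and Mmp14, and Lrp1 (−0.81), a receptor that clears proteases, were lower in T vs. S. Serpine2 rose in A + T vs. T (0.54) and Furin, which cuts the proforms of Mmp14 and Mmp15, fell (−0.47), with a list median of 0.48. Pcsk6 (−0.72) was the 1 gene of the list lower in A + T vs. S (median −0.03).

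Of 12 genes of interleukin-6 family signalling, 6 were higher and none lower in T vs. S (median 0.47), among them Socs3 (1.65), Osmr (1.31) and Stat3 (1.05). Relative to T, 3 were lower in A + T (median −0.21), Osmr (−0.82), Stat3 (−0.44) and Lifr (−0.41), and in A + T vs. S, 3 were higher (median 0.30), Socs3 (1.21), Stat3 (0.61) and Osmr (0.49). Of 13 AP-1 and immediate early genes, 4 were lower in T vs. S (median −0.29), among them Egr2 (−2.55), Egr1 (−2.08) and Ier2 (−0.83). Egr1 was the 1 of them higher in A + T vs. T (1.96, median of the list 0.52), and in A + T vs. S none passed by edgeR, DESeq2 or limma-voom (median 0.12) and 1 had an unadjusted P-value under 0.05 by edgeR. Of 14 TGF-beta genes, 4 were lower and 1 higher in T vs. S (median −0.17), with Ctgf, a matricellular TGF-beta target, at 163 ± 21.3 CPM for S, 457 ± 77.9 for T and 178 ± 29 for A + T (n = 3, mean ± SD). It rose by 1.48 on the log2 scale in T vs. S, and relative to T it was lower in A + T (−1.36; edgeR adjusted P = 0.000243 and 0.00269). Tgfb3 (−0.92), Ltbp1 (−0.70) and Tgfb1 (−0.46) were lower in T vs. S. Ctgf was the only one of the 14 to pass in A + T vs. T (median 0.04), and Tgfb3 (−0.63) the only one in A + T vs. S (median −0.09).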

How the data were processed

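Heart mRNA of 9 mice was sequenced. Per the paper's methods, the authors aligned paired-end reads to mm10 with STAR and assigned uniquely mapped reads to RefSeq genes with featureCounts, counting by strand, and they deposited the counts per gene without normalization. A second deposited table holds log2 values. The log2 difference between these values and log2 CPM was nearly constant over libraries for genes with at least 100 counts in each (median SD 0.0024 over 8489 genes after TMM scaling). The deposited values were read here as scaled by gene length. All per-sample columns were used.

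Following the study, a gene was dropped when over 4 of the 9 libraries had it under 0.5 CPM, and 13364 of 13890 remained. All libraries were fitted together with edgeR 4.0.16 (R 4.3.3), with TMM scaling and the quasi-likelihood test, and P-values were adjusted over all genes tested by Benjamini-Hochberg. Alternatives were DESeq2 1.42.0, limma 3.58.1 (voom, and on the deposited log2 values), other scalings and filters, other thresholds, Rn45s left out (12.4% of counts on average), only the groups compared, and each animal left out. Leaving out animals 12 and 22 together was chosen after seeing the data. These steps were tested on simulated data.

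The genes and lists were chosen with earlier results of these data known. The 9 pathway lists and 11 marker lists were of fixed composition, and from each pathway list up to 3 rises and 3 falls per comparison are named, among genes past the adjustment that averaged 10 counts or more and whose groups did not overlap. Positions come from the GENCODE annotation of GRCm38 and promoters from RefSeq. Each library was taken as 1 animal, and any pair within a group differed beyond counting noise (chi-square per gene of at least 7.70). Some results on single genes outside the 10 are not reported here.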

Additional observations from a re-analysis of the deposited data

How the results depend on the processing

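The falls of Mmp2 and Mmp15 in T vs. S kept their direction and an adjusted P-value under 0.05 under every alternative run. The number of genes called in A + T vs. T moved most. It was 1 as reported, 2 with DESeq2, 2 at an adjusted P-value under 0.1, 4 without animals 12 and 22 together, and 0 to 4 with each animal left out. In A + T vs. S it was 1 as reported and 0 to 2 with each animal left out, and in T vs. S 2 to 4. Without Rn45s the number in T vs. S was 4 instead of 3, with Mmp3 added, a gene that its high T libraries helped past the filter. At the study's thresholds, the number in A + T vs. T was 2 as reported, 4 with no limit on the fold change and 1 to 3 with each animal left out. In A + T vs. S it was 1 as reported, 2 with libraries scaled by their totals alone and 0 to 2 with each animal left out. The cause was not tested. The genes that changed sign were not called in either fit. In T vs. S, Timp1 had −0.01 with upper-quartile scaling, −0.02 by library totals, −0.04 without animals 12 and 22, and −0.20 to 0.42 with each animal left out, Adamts4 had 0.03 without animals 12 and 22 and −0.49 to 0.04, and Adamts1 −0.79 to 0.13. In A + T vs. T, Adamts1 had −0.02 without animals 12 and 22, and Adamts4 −0.54 to 0.06. In A + T vs. S, Adamts1 had −0.10 without animals 12 and 22 and −0.10 to 0.43, Timp3 −0.33 to 0.05 and Mmp14 −0.09 to 0.10. No scaling moved the median of all genes by over 0.1. The low counts of Timp1, Adamts4 and Mmp3 limit what these libraries can show of them.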

Other observations

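The other marker lists gave the following values. Atrial genes summed to 3150 to 3210 CPM in S, 876 to 4780 in T and 811 to 2160 in A + T, and mesothelial genes to 84.6 to 92.8, 31.5 to 115 and 36.9 to 176 CPM. Adipocyte genes summed to 1.22 to 18.4, 1.5 to 78.1 and 1.36 to 7.70 CPM, and neutrophil genes to 3.98 to 24.1, 21.7 to 29.1 and 19.8 to 235 CPM. The 1 erythroid gene listed stood at 70.8 to 147, 120 to 285 and 68.4 to 341 CPM.
None of the 6 mesothelial, 3 adipocyte and 1 erythroid genes tested was called by edgeR, DESeq2 or limma-voom in a comparison, and 0 had an unadjusted P-value under 0.05 by edgeR. None of the 4 neutrophil genes was called by edgeR or limma-voom, and all 4 had an unadjusted P-value under 0.05 by edgeR in A + T vs. S. By edgeR, 1 of 6 atrial genes was lower in T vs. S. The 1 airway gene tested, Scgb3a1, was called higher in T vs. S by edgeR. It had 18, 394 and 15 counts in T, most of them in animal 12, and 3, 14 and 6 in S. The 7 pericyte and smooth muscle genes summed to 777 to 910 CPM in S, 546 to 732 in T and 527 to 811 in A + T.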
